A study of Mus musculus with 6 samples.

Results

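The genes described here are those of glucose uptake, glycolysis and pyruvate fate in a mouse group 2 innate lymphoid cell (ILC2) line. ILC2s are lymphocytes that lack rearranged antigen receptors and secrete type 2 cytokines. The list of 41 genes was drawn up by function, with earlier results of these data known. A member was found in the deposited table when its probe set, numbered by Entrez gene, mapped to the listed symbol. Of the 41, 38 were measured, among 23740 genes with a symbol, and Gapdh, Eno1 and Mpc1 were not analysed here. Both groups were ILC2 line cells of the C57BL/6J strain, grown with 10 ng/ml of each of IL-33 and IL-2. All received a lentivirus with the CRISPR machinery and GFP, and the cells that expressed GFP were sorted on day 6. The 3 Myc knockout samples received a guide RNA against Myc, the gene of a transcription factor that drives growth, and the 3 control samples a non-targeting guide. Total RNA of the 6 samples was measured on Affymetrix arrays. The labels name 1 cell line, give no guide sequence and leave unsaid whether replicates were cultured or transduced separately. The p-values therefore reflect the spread of these samples alone, and that spread may be technical.

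Glucose enters lymphocytes through facilitative transporters of the SLC2A family, is trapped by hexokinases and is split into trioses that yield ATP, NADH and pyruvate. Phosphofructokinase is the main control point, and its activator fructose 2,6-bisphosphate is made and removed by the bifunctional enzymes of the PFKFB family. Pyruvate is either reduced to lactate and exported with a proton through monocarboxylate transporters, or carried into mitochondria, where pyruvate dehydrogenase kinases restrain its oxidation. Activated lymphocytes make much lactate even in oxygen, and both MYC and the hypoxia-inducible factor HIF-1 are known activators of many of these genes.

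Myc itself, the targeted gene, had log2 values of 9.55, 9.79 and 9.73 on the arrays labelled Myc knockout, against 9.27, 9.33 and 9.39 on the control arrays. It was thus higher, not lower, in the samples whose label names its knockout, by 0.36 ± 0.079 (SE; limma's adjusted p = 0.126; exact two-sided permutation test, p = 0.1, the smallest that 3 against 3 arrays allow). Editing can disrupt a protein and leave its mRNA in place, so the labels are only weakly checked by this level, and all directions given here depend on them. Array medians were 3.27 to 3.34 and lower quartiles 2.04 to 2.13 on the log2 scale, and a gene near or below the medians cannot show a lack of change. The number of arrays limits the precision. Among the ILC2 markers, 12 of 14 lay at or above the array medians. Gata3 averaged 9.32 and Il5 10.01 on the arrays labelled Myc knockout, against 9.57 and 9.53 on the control arrays. Rora was far dimmer, at 3.99 on the arrays labelled Myc knockout and 4.01 on the control arrays. Below the medians were Il17rb and Thy1, at 2.12 and 3.32 on the arrays labelled Myc knockout, against 2.09 and 3.21 on the control arrays. Of the markers of other cells, 6 of 10 T cell and 4 of 8 NK cell and ILC1 genes were below the array medians. So were 5 of 6 ILC3 and 6 of 8 myeloid and mast cell genes. Well above them were the NK cell and ILC1 genes Prf1 and Gzma and the myeloid and mast cell genes Mcpt8 and Itgam. Prf1 averaged 7.49 and Gzma 6.85 on the arrays labelled Myc knockout, against 7.40 and 6.52 on the control arrays. Mcpt8 averaged 7.53 and Itgam 5.99 on the arrays labelled Myc knockout, against 7.9996 and 6.61 on the control arrays.

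Values on the arrays labelled Myc knockout were below those on the control arrays for all 3 measured glucose transporters and, by their means, for all 7 upper glycolysis genes, but none of these passed over all genes. In lower glycolysis, without Gapdh and Eno1, 3 of 7 measured genes had negative differences, and both brakes on uptake had positive ones, also without passing. Pfkfb3, whose product raises fructose 2,6-bisphosphate, fell 1.62-fold and was the 1 member past the threshold over all genes tested. This makes 1 of 38 members lower and 0 higher at limma's Benjamini-Hochberg adjusted p under 0.05, where 0.198% of all genes were lower and 0.257% higher. Without adjustment, at p under 0.05, 14 members (36.8%) were lower and 4 (10.5%) higher, against 7.98% and 6.96% of all genes. All 3 arrays labelled Myc knockout read below all 3 control arrays for 18 members (47.4%) and above them for 4 (10.5%), against 10.7% and 9.26% of all genes. The median log2 difference, arrays labelled Myc knockout minus control, was -0.095 over the members and 0.0074 over all genes. Because the list was drawn up with earlier results of these data known, these shares are a description. Brighter genes were more often lower. Of the 32 members at or above the array medians 14 were lower and 3 higher at an unadjusted p under 0.05, where 13.6% of the 12181 genes that bright were lower and 7.73% higher, a split chosen after the values were seen.

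**Figure D1:**
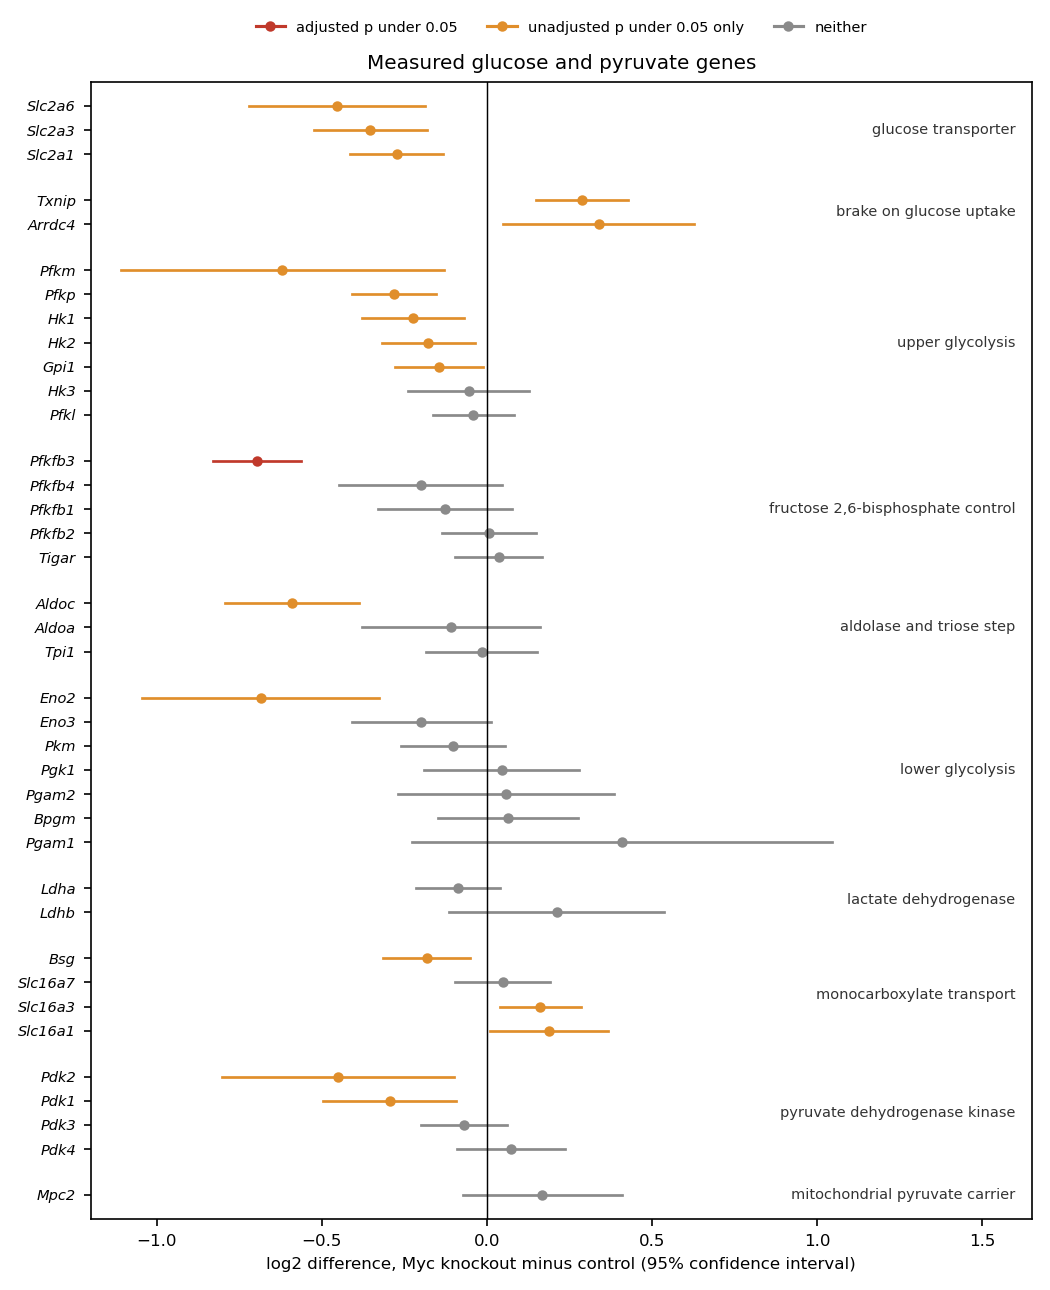
Log2 difference (x axis, arrays labelled Myc knockout minus control, with limma's 95% confidence interval) of the 38 measured genes, grouped by step of the pathway from uptake at the top to the mitochondrial carrier at the bottom. Pfkfb3, in red, is the 1 gene past the threshold over all genes, and the intervals of all 3 glucose transporters lie below 0 while those of both brakes lie above it.

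All 3 measured glucose transporters had lower values on every array labelled Myc knockout than on any control array, as did 10.7% of all genes. Slc2a1, which encodes the ubiquitous transporter GLUT1, was at 9.19, 9.21 and 9.19 on the arrays labelled Myc knockout, against 9.53, 9.46 and 9.40 on the control arrays. Slc2a3, the gene of the high-affinity transporter GLUT3, was at 9.53, 9.53 and 9.60 on the arrays labelled Myc knockout, against 10.03, 9.85 and 9.83 on the control arrays. Slc2a6, the gene of the less studied transporter GLUT6, was at 5.80, 5.65 and 5.49 on the arrays labelled Myc knockout, against 6.11, 5.95 and 6.25 on the control arrays. The log2 differences were -0.27 ± 0.058 for Slc2a1, -0.35 ± 0.072 for Slc2a3 and -0.45 ± 0.11 for Slc2a6 (SE), which is 1.21-fold, 1.28-fold and 1.37-fold lower. None passed over all genes (adjusted p = 0.116, 0.106 and 0.154 in limma), but the gap between the groups was larger than the range within either group for Slc2a1 and Slc2a3. With an intensity trend in limma's prior variance both passed (adjusted p = 0.0311 for Slc2a1 and 0.0393 for Slc2a3), in a fit that called more of all genes. With the replicate number as a block neither passed (limma's adjusted p = 0.272 for Slc2a1 and 0.248 for Slc2a3). Nor did either pass with any array left out (limma's adjusted p 0.210 to 0.258 for Slc2a1 and 0.205 to 0.238 for Slc2a3).

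The RefSeq promoter of Slc2a1 is shown because it carries both core forms of the hypoxia response element that HIF-1 binds. One form reads ACGTG and the alternative form reads GCGTG, while the E-box that MYC binds reads CACGTG. It is chr4:119108495-119108744 (GRCm38.p6, plus strand), the 250 bases before the start site. Capitals in every promoter below mark matches to the E-box or to either core, on either strand, and here lie 36 and 61 bases before the start site.
Slc2a1: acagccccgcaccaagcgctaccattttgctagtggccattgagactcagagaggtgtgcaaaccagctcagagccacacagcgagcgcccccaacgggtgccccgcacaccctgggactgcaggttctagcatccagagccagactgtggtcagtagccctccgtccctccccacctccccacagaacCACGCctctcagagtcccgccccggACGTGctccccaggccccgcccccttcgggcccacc

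Both brakes on uptake had higher values on every array labelled Myc knockout than on any control array, as did 9.26% of all genes. Txnip, an alpha-arrestin that removes GLUT1 from the cell surface, was at 6.64, 6.70 and 6.69 on the arrays labelled Myc knockout, against 6.42, 6.41 and 6.32 on the control arrays. Arrdc4, a related arrestin with the same action on glucose uptake, was at 2.80, 3.27 and 3.11 on the arrays labelled Myc knockout, against 2.68, 2.71 and 2.77 on the control arrays. Txnip differed by 0.29 ± 0.058, and neither gene passed the threshold (adjusted p in limma 0.106 for Txnip and 0.276 for Arrdc4). Arrdc4 lay below the array medians, where the size of its difference cannot be read.

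Txnip and Arrdc4 are both known targets of the glucose-sensing MondoA and MLX pair, which binds E-boxes, and their promoters are shown for that reason. The Txnip window is chr3:96557707-96557956 on the plus strand and the Arrdc4 window chr7:68749239-68749488 on the minus strand (RefSeq, GRCm38.p6), each the 250 bases before the start site. The Arrdc4 window holds 1 exact CACGTG, 193 bases before the start site, and the Txnip window no exact CACGTG, with 2 GCGTG matches. Sequences that differ from CACGTG were not searched as E-boxes. Whether either window holds a site of the pair in another form cannot be read from these matches.
Txnip: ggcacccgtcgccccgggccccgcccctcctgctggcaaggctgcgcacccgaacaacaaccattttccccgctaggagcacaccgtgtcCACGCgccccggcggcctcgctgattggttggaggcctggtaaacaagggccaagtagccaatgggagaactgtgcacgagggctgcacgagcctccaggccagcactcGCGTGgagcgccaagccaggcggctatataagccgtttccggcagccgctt
Arrdc4: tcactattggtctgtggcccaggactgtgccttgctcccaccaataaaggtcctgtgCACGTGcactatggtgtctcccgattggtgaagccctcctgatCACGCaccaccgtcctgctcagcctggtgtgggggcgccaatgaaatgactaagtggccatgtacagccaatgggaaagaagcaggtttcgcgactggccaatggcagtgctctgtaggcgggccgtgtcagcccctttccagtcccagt

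Among the MondoA pathway genes themselves, Mlxip, the gene of MondoA, differed by -0.14 ± 0.068 and Mlx by 0.068 ± 0.055, and neither passed (limma's adjusted p = 0.402 and 0.598).

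**Figure D2:**
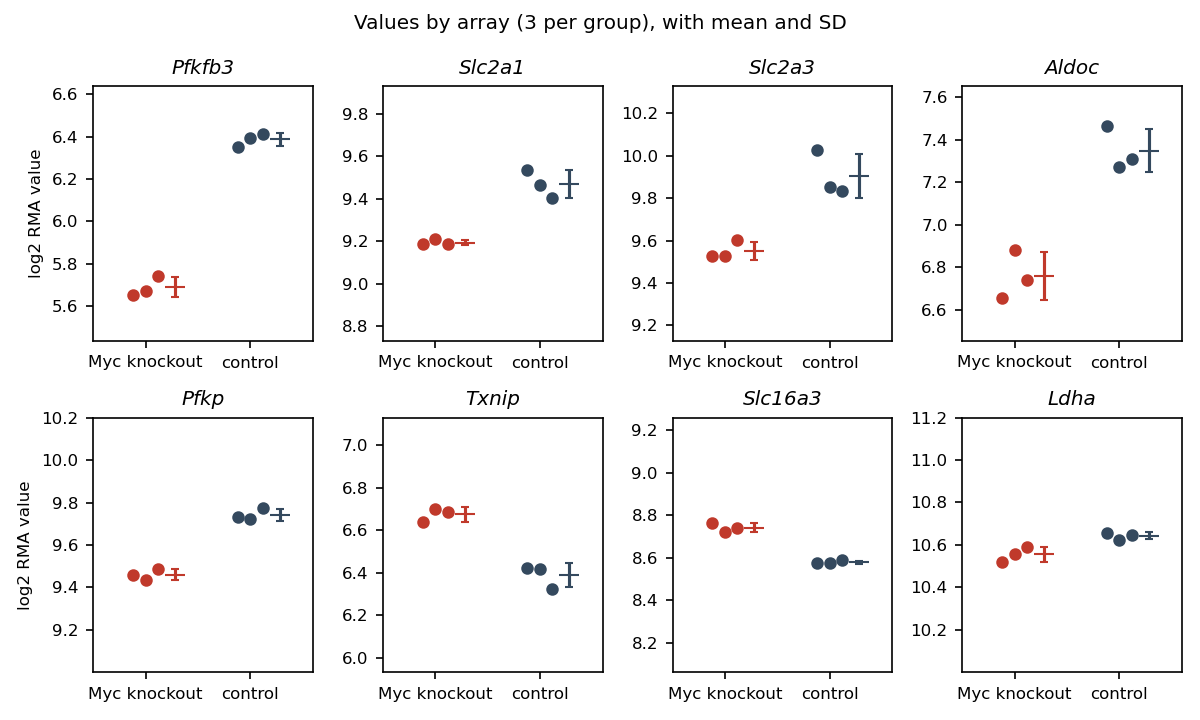
Log2 RMA value (y axis, with the same span in every panel) on each of 3 arrays labelled Myc knockout (left) and 3 control arrays (right), with the mean and SD beside the points. The 8 genes were picked for display, and the groups do not overlap in any of their panels. Of all 38 measured genes 18 lay apart and below and 4 apart and above, against 10.7% and 9.26% of all genes. Among the panels the gap is widest in Pfkfb3 (mean 5.69 on the arrays labelled Myc knockout, 6.39 on the control arrays) and narrowest in Ldha (10.56 on the arrays labelled Myc knockout, 10.64 on the control arrays).

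In upper glycolysis 0 of 7 measured genes passed over all genes. All 7 had negative log2 differences, against 47.8% of all genes, 5 were lower at an unadjusted p under 0.05 (7.98% of all genes), and for 6 all arrays labelled Myc knockout lay below the control arrays (10.7% of all genes). Among genes at or above the array medians, where 6 of the 7 lie, 57.7% were negative, 13.6% lower at that p and 18.5% apart and below. Hk1 and Hk2 encode the mitochondria-bound hexokinases that phosphorylate incoming glucose. Hk1 was at 8.33, 8.44 and 8.50 on the arrays labelled Myc knockout, against 8.64, 8.66 and 8.64 on the control arrays. Hk2 was at 6.60, 6.67 and 6.55 on the arrays labelled Myc knockout, against 6.79, 6.75 and 6.81 on the control arrays. They differed by -0.22 ± 0.064 and -0.18 ± 0.058 without passing over all genes (limma's adjusted p = 0.200 and 0.249). Hk3, at 2.58 ± 0.051 on the arrays labelled Myc knockout, against 2.64 ± 0.12 on the control arrays (SD, n = 3 each), was below the array medians and overlapped. Gpi1, the isomerase that makes fructose 6-phosphate, was at 10.53, 10.59 and 10.50 on the arrays labelled Myc knockout, against 10.70, 10.70 and 10.66 on the control arrays, a difference of -0.15 ± 0.055 (limma's adjusted p = 0.299).

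The 3 phosphofructokinase subunit genes differed in how far apart the groups lay. Pfkp, the platelet-type subunit, was at 9.46, 9.43 and 9.49 on the arrays labelled Myc knockout, against 9.73, 9.72 and 9.77 on the control arrays. Its difference of -0.28 ± 0.053 was several times its SD, 0.026 among the arrays labelled Myc knockout and 0.028 among the control arrays, though it did not pass over all genes (limma's adjusted p = 0.0935). Pfkm, the muscle-type subunit, was at 4.30, 3.69 and 4.47 on the arrays labelled Myc knockout, against 4.72, 4.65 and 4.94 on the control arrays. The low second replicate widened its interval to -1.11 to -0.13, and without that array its difference was -0.39. Pfkl, the liver-type subunit, was at 7.30 ± 0.027 on the arrays labelled Myc knockout and 7.35 ± 0.0073 on the control arrays (SD, n = 3 each). Its interval of -0.1642 to 0.0823 overlaps that of Pfkp, -0.4084 to -0.1555. That the subunits differ from each other was not tested.

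Of the 5 genes that set fructose 2,6-bisphosphate, Pfkfb3 alone passed. Its log2 values were 5.66, 5.67 and 5.74 on the arrays labelled Myc knockout, against 6.35, 6.39 and 6.41 on the control arrays, a gap far wider than the range within either group. The difference was -0.70 ± 0.056 (95% confidence interval -0.83 to -0.56; limma's adjusted p = 0.0164). PFKFB3 has the highest kinase activity of its family and so pushes phosphofructokinase forward. Pfkfb4 was at 3.80 ± 0.11 on the arrays labelled Myc knockout and 3.998 ± 0.16 on the control arrays (SD, n = 3 each). Pfkfb1 was at 3.90 ± 0.15 on the arrays labelled Myc knockout and 4.03 ± 0 on the control arrays, where its values were identical (SD, n = 3 each). Pfkfb2 differed by 0.0069 ± 0.059 and Tigar, the gene of a phosphatase that removes fructose 2,6-bisphosphate, by 0.036 ± 0.055. None of these 4 had an unadjusted p under 0.05 in limma. The Pfkfb3 call rests on all 6 arrays: without any 1 of them its adjusted p in limma was 0.0665 to 0.127, at differences of -0.72 to -0.68.

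RefSeq lists several start sites for Pfkfb3, and the arrays do not tell which is used. The windows are chr2:11553930-11554179 and chr2:11502091-11502340, both on the minus strand of GRCm38.p6 and each the 250 bases before its start site. They are shown because Pfkfb3 is the gene that passed. The first holds ACGTG 60 bases before the start site, and the second an E-box, CACGTG, 53 bases before it and GCGTG 122 bases before it.
Pfkfb3, first start site: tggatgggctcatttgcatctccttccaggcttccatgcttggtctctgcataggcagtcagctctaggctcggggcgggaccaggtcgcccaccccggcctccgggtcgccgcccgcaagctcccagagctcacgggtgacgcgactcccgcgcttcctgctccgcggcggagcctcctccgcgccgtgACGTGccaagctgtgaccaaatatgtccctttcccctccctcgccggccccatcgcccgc
Pfkfb3, second start site: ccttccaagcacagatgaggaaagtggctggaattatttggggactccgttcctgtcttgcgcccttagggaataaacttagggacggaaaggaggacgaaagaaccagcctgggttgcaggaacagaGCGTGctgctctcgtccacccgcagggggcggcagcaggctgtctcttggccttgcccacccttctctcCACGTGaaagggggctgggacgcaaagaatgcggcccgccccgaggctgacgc

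At the aldolase step Aldoc, the brain-type aldolase gene, stood just outside the threshold. It was at 6.66, 6.88 and 6.74 on the arrays labelled Myc knockout, against 7.46, 7.27 and 7.31 on the control arrays, a 1.51-fold lower level (-0.59 ± 0.085, limma's adjusted p = 0.0541). Under cyclic loess scaling it passed, with an adjusted p of 0.0467 in limma at a difference of -0.56. It did not pass with the replicate number as a block (limma's adjusted p = 0.195). With an array left out its adjusted p in limma was 0.121 to 0.192. Aldoa, the widely expressed aldolase gene, was at 3.96 ± 0.13 on the arrays labelled Myc knockout and 4.07 ± 0.18 on the control arrays (SD, n = 3 each), near the array medians. Tpi1, the triose phosphate isomerase gene, was at 9.85, 9.93 and 9.76 on the arrays labelled Myc knockout, against 9.89, 9.79 and 9.91 on the control arrays. These overlap, and the interval of its difference was -0.18 to 0.15.

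Lower glycolysis was mostly within the spread, with 1 of 7 measured genes (14.3%) lower at an unadjusted p under 0.05. This is near the background, as 7.98% of all genes and 13.6% of genes at or above the array medians were lower. Gapdh and Eno1 of this step were not analysed. On the control arrays Pgk1 averaged 4.65 and Pgam1 4.11, far below Pkm at 9.96, so the step is only partly covered. That it differs from upper glycolysis was not tested. Eno2, the neuron-type enolase gene and a known HIF-1 target, was at 4.70, 4.93 and 4.74 on the arrays labelled Myc knockout, against 5.26, 5.36 and 5.80 on the control arrays (-0.68 ± 0.15, limma's adjusted p = 0.123). Eno3, the muscle-type enolase gene, differed by -0.20 ± 0.087 with groups that did not overlap, and its interval of -0.41 to 0.011 includes 0; without control replicate 2 the difference was -0.12. Pkm, whose product pyruvate kinase makes pyruvate and whose M1 and M2 forms the probe set does not separate here, was at 9.93, 9.85 and 9.79 on the arrays labelled Myc knockout, against 9.99, 10.00 and 9.89 on the control arrays. It differed by -0.10 ± 0.066, within its spread. Pgk1 (0.045 ± 0.098) and Bpgm (0.063 ± 0.088) did not pass, with intervals of -0.19 to 0.28 and -0.15 to 0.28. Pgam2, at 2.35 on the arrays labelled Myc knockout and 2.29 on the control arrays, was below the array medians, where a lack of change cannot be shown. Pgam1, the phosphoglycerate mutase gene, was at 4.37, 4.48 and 4.71 on the arrays labelled Myc knockout, against 4.66, 4.11 and 3.56 on the control arrays, so that its interval ran from -0.23 to 1.04 and leaves its direction unknown. Processed pseudogenes nearly identical to Aldoa, Tpi1, Pgk1, Pgam1 and Ldha are known in mouse, and a probe set can share them, so these values are uncertain.

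Ldha, whose product turns pyruvate into lactate and which is a textbook MYC target, had probe set values that differed little. It was at 10.52, 10.56 and 10.59 on the arrays labelled Myc knockout, against 10.66, 10.63 and 10.65 on the control arrays. All 3 lay lower, but the difference of -0.087 ± 0.053 did not pass (limma's adjusted p = 0.484). Its interval of -0.21 to 0.040 reflects the spread of these arrays alone. Whether pseudogenes share this probe set was not tested, so the size of a difference in Ldha itself cannot be read from it. Ldhb, the gene of the heart-type subunit, was below the array medians, at 2.89 ± 0.27 on the arrays labelled Myc knockout, against 2.68 ± 0.081 on the control arrays (SD, n = 3 each).

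The Ldha promoter is shown beside this value because it holds 2 E-boxes within chr7:46845554-46845803 (GRCm38.p6, plus strand), 145 and 48 bases before the first of its RefSeq start sites.
Ldha: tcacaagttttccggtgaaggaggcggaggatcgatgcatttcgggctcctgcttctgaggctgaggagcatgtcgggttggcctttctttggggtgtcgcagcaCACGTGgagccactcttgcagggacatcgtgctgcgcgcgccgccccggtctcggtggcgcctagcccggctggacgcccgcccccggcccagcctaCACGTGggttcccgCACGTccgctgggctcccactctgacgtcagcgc

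Both lactate transporter genes above the array medians had higher values on the arrays labelled Myc knockout. Slc16a3, the gene of MCT4, the transporter of cells that export much lactate, was at 8.76, 8.72 and 8.74 on the arrays labelled Myc knockout, against 8.58, 8.57 and 8.59 on the control arrays. Slc16a1, the gene of MCT1, was at 8.10, 8.10 and 8.27 on the arrays labelled Myc knockout, against 7.88, 8.03 and 7.997 on the control arrays. Both were higher on every array labelled Myc knockout than on any control array, as were 9.26% of all genes. The differences were 0.16 ± 0.051 and 0.19 ± 0.075, without passing (limma's adjusted p = 0.231 and 0.314). Bsg, the gene of basigin, which escorts both transporters to the membrane, ran the other way. It was at 10.02, 10.04 and 9.98 on the arrays labelled Myc knockout, against 10.24, 10.18 and 10.16 on the control arrays (-0.18 ± 0.055, limma's adjusted p = 0.216). Slc16a7, the gene of MCT2, was at 1.53 ± 0.032 on the arrays labelled Myc knockout and 1.49 ± 0.067 on the control arrays (SD, n = 3 each), below the lower quartiles of the arrays.

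Of the 4 kinase genes that act on the mitochondrial fate of pyruvate, 0 passed over all genes and 2 were lower at an unadjusted p under 0.05. At that p 7.98% of all genes were lower, and 13.6% of genes at or above the array medians. Pdk1, a HIF-1 target whose product inhibits pyruvate dehydrogenase, was at 5.73, 6.02 and 5.92 on the arrays labelled Myc knockout, against 6.16, 6.22 and 6.16 on the control arrays. Pdk2, the gene of a widely expressed kinase of the same family, was at 4.92, 5.27 and 4.70 on the arrays labelled Myc knockout, against 5.35, 5.53 and 5.36 on the control arrays. The differences were -0.29 ± 0.084 and -0.45 ± 0.15 (limma's adjusted p = 0.196 and 0.247). Pdk3 differed by -0.071 ± 0.054, and Pdk4 was at 2.14 ± 0.10 on the arrays labelled Myc knockout and 2.07 ± 0.016 on the control arrays (SD, n = 3 each), near the lower quartiles of the arrays. Mpc2, a subunit of the mitochondrial pyruvate carrier, was at 5.19, 5.22 and 5.22 on the arrays labelled Myc knockout, against 5.26, 4.89 and 4.98 on the control arrays, and its groups overlapped.

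**Figure D3:**
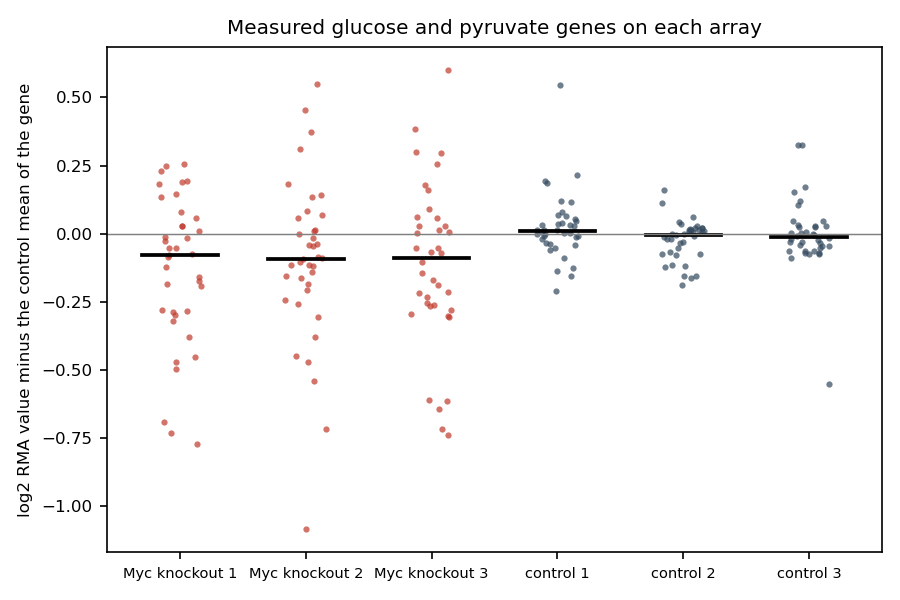
Log2 RMA value minus the gene's control mean (y axis) for the 38 measured genes on each array, with the median as a bar. The medians of the 3 arrays labelled Myc knockout lie between -0.092 and -0.078 and those of the control arrays between -0.012 and 0.0090.

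The lower values did not come from 1 array. The median over the members of the value minus the control mean was -0.078, -0.092 and -0.088 on the arrays labelled Myc knockout, against 0.0090, -0.0040 and -0.012 on the control arrays. Pairs of arrays differed over the members by an SD of 0.312 between groups, against 0.185 among the arrays labelled Myc knockout and 0.193 among the control arrays. Over all genes these were 0.262, 0.232 and 0.204.

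Branches of glucose metabolism around the pathway were mixed. In 8 lists of neighbouring genes 0 passed over all genes, and among their 80 measured genes limma gave an unadjusted p under 0.05 to 5 that were higher (6.25%) and 11 that were lower (13.8%), with a median of -0.030. Over all genes 6.96% were higher and 7.98% lower, and 13.6% were lower among genes at or above the array medians, so these shares are near the background. Glycogen and gluconeogenesis genes were 4 lower and 0 higher of 17 (median -0.12), and Gbe1, the glycogen branching enzyme, had the smallest p among them, at 5.21 ± 0.14 on the arrays labelled Myc knockout and 5.82 ± 0.069 on the control arrays (limma's adjusted p = 0.0522). The 9 other transporters were 2 lower and 1 higher, with Slc2a9, a urate transporter, at -0.61 ± 0.11. Hexosamine synthesis was 1 lower and 1 higher of 7: Ogt, which attaches GlcNAc to proteins, differed by -0.42 ± 0.078. None of 9 pentose phosphate genes reached an unadjusted p under 0.05 in limma (median -0.068; Tktl1, a dim transketolase-like gene, had the smallest p, at -0.30 ± 0.13). The pyruvate dehydrogenase complex was 1 lower of 8, Pdp1, the gene of its activating phosphatase (-0.24 ± 0.099), and the NADH shuttles were 2 higher of 10, with Gpd2, the mitochondrial glycerol phosphate dehydrogenase, at 0.27 ± 0.074. The glucose-sensing and hypoxia regulators were 3 lower of 9, among them Egln3, which also stands in the list of hypoxia targets. Of 11 other isoenzymes 9 were below the array medians and 1 was higher, Ldhd (0.19 ± 0.068).

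Hypoxia target genes outside glycolysis were lower beside the glucose genes. Of 17 measured, 6 fell at limma's adjusted p under 0.05 and 0 rose, 14 were lower at an unadjusted p under 0.05 and the median was -0.39. Over all genes 0.198% were lower at the adjusted and 7.98% at the unadjusted threshold, the second share being 13.6% among genes at or above the array medians, where 16 of the 17 lie. Those that fell were Bhlhe40, a transcriptional repressor (-1.18 ± 0.11), Ddit4, an inhibitor of mTORC1 (-0.9998 ± 0.092), Ankrd37 (-0.82 ± 0.076), Vegfa, the vascular growth factor (-0.70 ± 0.082), Mxi1, a MYC antagonist (-0.61 ± 0.065), and Stc2, a secreted glycoprotein (-0.42 ± 0.051). This list was chosen with earlier results of these data known, so its direction is a description. Hif1a, the oxygen-regulated HIF subunit, averaged 9.83 on the arrays labelled Myc knockout and 9.79 on the control arrays (0.040 ± 0.063), while Egln1, a prolyl hydroxylase that marks it for destruction, differed by -0.41 ± 0.068 and Vhl, part of the ligase that destroys it, by -0.31 ± 0.063 (limma's adjusted p = 0.0762 and 0.109). Vhl had an identical value, 6.10, on all 3 arrays labelled Myc knockout, so its spread in that group cannot be read. HIF protein was not measured, and the part of these differences in the glucose gene values was not tested.

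**Figure D4:**
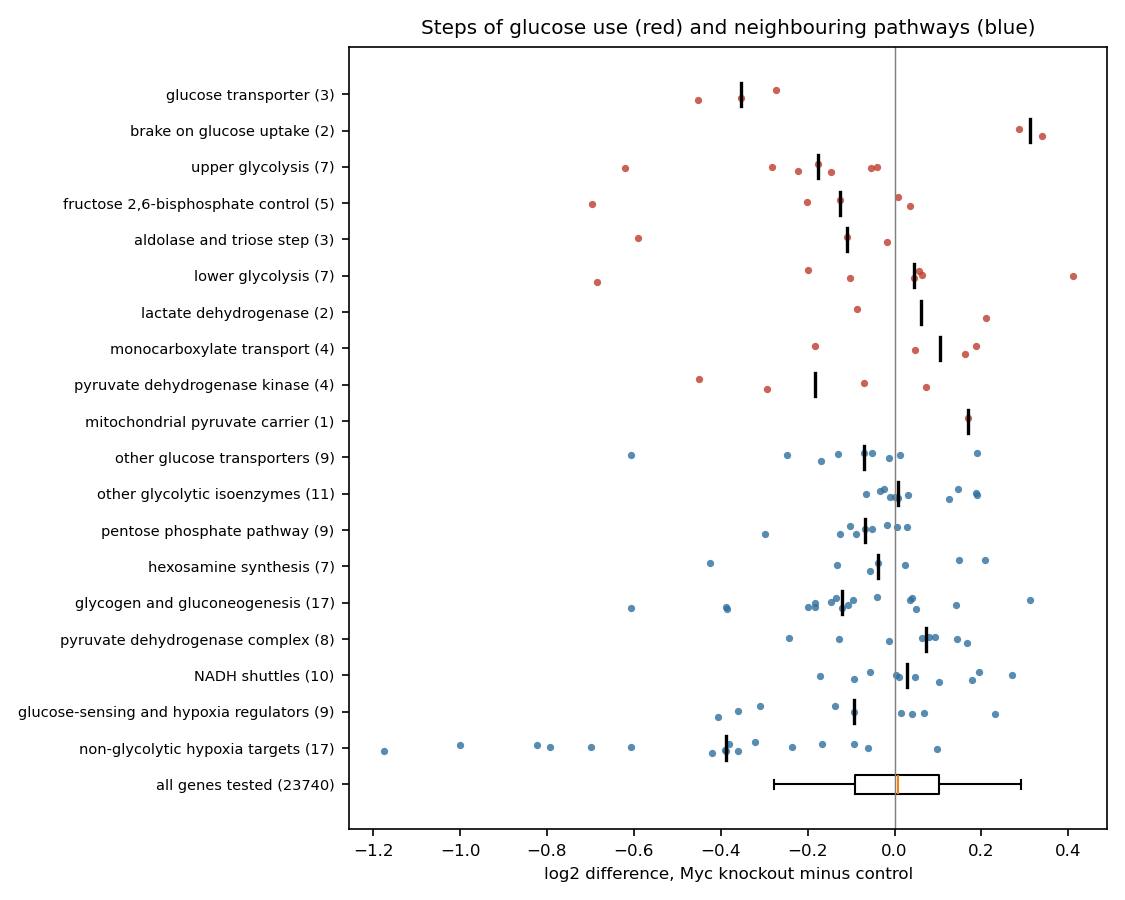
Log2 difference (x axis, arrays labelled Myc knockout minus control) of each gene as a point, for the steps of glucose use in red and neighbouring lists in blue, with the number of genes in brackets and the median as a bar; the box at the bottom spans the middle of all genes tested, with whiskers that leave out an equal share of genes in each tail. Transporters (median -0.35) and non-glycolytic hypoxia targets (-0.39) sit furthest to the left, and the 2 brakes on uptake, of which Arrdc4 is below the array medians, lie to the right of 0.

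Markers of other cells moved somewhat with the groups. The summed log2 value of the 10 T cell markers was 32.7 to 33.8 on the arrays labelled Myc knockout and 34.0 to 34.5 on the control arrays, and for 8 myeloid and mast cell markers it was 23.7 to 24.5 on the arrays labelled Myc knockout and 25.2 to 25.6 on the control arrays. Of these 8, Mcpt8 and Itgam lay lower on every array labelled Myc knockout than on any control array. Neither passed (limma's adjusted p = 0.207 for Mcpt8 and 0.0762 for Itgam). For 8 NK cell and ILC1 markers the sum was 30.2 to 30.6 on the arrays labelled Myc knockout and 29.1 to 30.0 on the control arrays, and for 6 ILC3 markers 13.7 to 13.8 on the arrays labelled Myc knockout and 12.2 to 13.0 on the control arrays. For 14 ILC2 markers it was 107 to 108 in both groups, a sum over genes that went both ways. Before adjustment, at p under 0.05, 4 were higher and 4 were lower (6.96% and 7.98% of all genes). Of these Il5 passed as higher (0.49 ± 0.060, limma's adjusted p = 0.0381) and Il9r, a cytokine receptor gene, as lower (-0.55 ± 0.070, limma's adjusted p = 0.0400). Among the T cell markers Foxp3, the regulatory T cell factor, fell to 5.39 on the arrays labelled Myc knockout, against 6.12 on the control arrays (limma's adjusted p = 0.0457). Cd3g, a T cell receptor chain, was at 5.04 on the arrays labelled Myc knockout and 5.47 on the control arrays, without passing, and Cd3e, of the same complex, at 1.98 on the arrays labelled Myc knockout and 2.15 on the control arrays, was below the array medians. Cd8a was at 4.93 on the arrays labelled Myc knockout and 4.73 on the control arrays, with groups that overlapped. The NK cell and ILC1 marker Klrk1 and the ILC3 marker Il17a passed as higher, at 3.76 and 3.79 on the arrays labelled Myc knockout, against 3.08 and 2.84 on the control arrays, where both were below the array medians (limma's adjusted p = 0.0470 and 0.0351). The brighter Gzma also lay higher on every array labelled Myc knockout than on any control array, without passing (limma's adjusted p = 0.215). For Prf1 the groups overlapped. The part of these cells in the glucose gene values was not tested, and in bulk RNA fewer cells of a type and less RNA per cell cannot be told apart.

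Promoter letters were counted in the 250 bases before the start site, for the 35 measured members with a RefSeq entry (52 windows) and for all 32851 windows. CACGTG, which reads the same on both strands, was in 13.5% of the members' windows and 6.02% of all. ACGTG, which every CACGTG also contains, was in 38.5% against 16.6% of all, and in 26.9% against 11.4% outside an E-box. The core GCGTG was in 48.1% against 28.2% of all. ACGTG or GCGTG stood in a window of 10 of 12 members that were lower at an unadjusted p under 0.05, of 4 of 4 that were higher and of 15 of 19 others, and that the shares differ was not tested. The windows compared were not matched for base composition or for level of expression, and the cause of the higher shares was not tested. A match is a description of the letters and not a bound site.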

How the data were processed

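The authors deposited 1 table of log2 values, made with RMA per the submitters' processing notes, which also name limma 3.14.4. RMA gives all arrays the same intensity distribution, so that it hides any change of total mRNA. Neither build nor probe set definition is given in the sources used here. Of 25206 probe sets, the platform annotation gave 1 symbol for 23185, several for 0 and none for 2021, of which 555 were named by gene number in a RefSeq table (GRCm38.p6), among them those of Gpi1, Pfkfb1 and Mpc2; all 23740 named genes were tested. Groups came from sample titles. Differences (Myc knockout minus control) were fitted with limma 3.58.1 in R 4.3.3 (lmFit and eBayes, no trend, no covariate, two-sided, Benjamini-Hochberg over all genes). The procedure was tested on simulated data with independent arrays and variances drawn from limma's own fit. Such data cannot show whether these arrays meet the assumptions of the fit. Myc also had an exact permutation test.

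Members and lists were chosen with earlier results of these data known. Members past the threshold, those at an unadjusted p under 0.05 and Slc2a1, Hk2, Pkm, Ldha, Txnip and Arrdc4 were described by array, the rest by value or range; further members shown by array were chosen after their values were seen. Of each neighbouring list the genes past the threshold, or else the gene with the smallest p, were named, and Hif1a, Vhl, Mlx, Mlxip and the marker genes named were added after their values were seen. As alternatives, each array was left out, values were rescaled by median centring or cyclic loess, dim genes were filtered, all probe sets were tested, arrays were weighted, the prior variance was made robust or given an intensity trend, and the replicate number was a block; restriction to genes named by the platform was added after the data were seen. Same-numbered arrays did not deviate together, so the numbers were not taken as pairs. The B cell marker list is not reported here. Promoter sequences are RefSeq's. Figures were drawn with matplotlib 3.10.9.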

Additional observations from a re-analysis of the deposited data

How the results depend on the processing

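The median log2 difference over the members (-0.095) was -0.12 under median centring, -0.14 over the 32 members at or above the median gene level and -0.11 to -0.074 with an array left out. The median over all genes (0.0074) also moved down, to -0.017 under median centring and -0.03 with the filter on dim genes. The counts past the threshold over all genes (1 lower, 0 higher) became 5 lower and 1 higher with an intensity trend, 6 and 1 with the filter on dim genes and 2 lower under cyclic loess. With an array left out they were 0 to 0 in both directions, and over all genes such fits called at most 2. At an unadjusted p under 0.05, the 4 higher became 2 to 5 and the 14 lower 11 to 14 with an array left out. Replicate numbers are shared between the groups, but same-numbered arrays correlated at -0.072, -0.014 and -0.019 in their deviations; with the replicate block 0 members passed as lower (Pfkfb3, limma's adjusted p = 0.119), as did 0 of all genes, and the count of higher members at an unadjusted p under 0.05 was 2. Over all genes, 61 were higher and 47 lower, 175 and 222 with an intensity trend, 213 and 356 with the filter. Pfkfb2 changed sign under median centring (-0.0175), and Pfkfb2 (-0.0275 to 0.0299), Tpi1 (-0.0599 to 0.0279), Pgk1 (-0.0287 to 0.126), Pgam2 (-0.037 to 0.219) and Bpgm (-0.0195 to 0.118) with an array left out. The cause of these changes was not tested, beyond the fewer genes or arrays in the fits concerned.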

Other observations

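Identical deposited values on 2 or more arrays occurred for 13 of 38 measured members (34.2%) and for 38.7% of all genes. Pgam2 had 2.35 on all 3 arrays labelled Myc knockout and Pfkfb1 had 4.03 on all 3 control arrays and on 1 array labelled Myc knockout. Among the arrays labelled Myc knockout, Slc2a1 had the same value on replicates 1 and 3 and Slc2a3 on replicates 1 and 2. Hk1 and Pdk1 each had the same value on control replicates 1 and 3. Whether these ties affect the calls or the spread within groups was not tested.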
